A study of Medicago truncatula with 9 samples.

Results

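miR162 and miR168 are the plant miRNAs that target the mRNAs of the miRNA machinery itself. The deposited count table of small RNA from Medicago truncatula seedlings was searched for mtr-miR162 and mtr-miR168 entries by name. The search found 5 of 905 entries, namely mtr-miR162, mtr-miR168a, mtr-miR168b, mtr-miR168c-5p and mtr-miR168c-3p. Genotype R108 seeds were germinated in dishes on alkali (5 mM sodium carbonate with sodium bicarbonate), on salt (20 mM sodium chloride with sodium sulfate) or on distilled water, and whole seedlings were taken at 72 h. Each condition had 3 small RNA libraries, called AS1 to AS3 for alkali, SS1 to SS3 for salt and DW1 to DW3 for distilled water. The study calls the replicates biological, but describes a single dish for each condition and does not state whether they came from separate dishes, so p-values measure the spread between these libraries, which may be technical in part. In whole seedlings, a change in the share of a tissue and a change in level within a tissue cannot be told apart.

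In plants, DICER-LIKE1 (DCL1) cuts miRNA precursors into short duplexes, and ARGONAUTE1 (AGO1) carries 1 strand of the duplex to its target mRNA. In Arabidopsis, miR162 guides cleavage of the DCL1 mRNA and miR168 guides cleavage of the AGO1 mRNA, so each forms a negative feedback loop on miRNA production or action. The 5p arm of the miR168 hairpin is the strand that pairs with AGO1 mRNA. The 3p arm is its partner in the duplex. The DCL1 and AGO1 mRNAs were not measured in these libraries.

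The mature sequences of 3 of the 5 entries are given in the study's lists of differentially expressed miRNAs. The study thus counted these 3 entries as changed in salt or alkali, by its own test and thresholds. The comparison and direction it gave for them are not reported here. The sequences show which entries are the same. Bases 2 to 8, the seed, are in capitals.
mtr-miR168b: uCGCUUGGugcaggucgggaa
mtr-miR168c-5p: uCGCUUGGugcaggucgggaa
mtr-miR168c-3p: cCCGCCUUgcaucaacugaau
A predicted miRNA that the study numbers 56 is shown with them because its 19 bases are the first 19 of miR168b and miR168c-5p.
Predicted miRNA 56: uCGCUUGGugcaggucggg
Its number does not pair with a name in the count table, so it has no value here. Among the other sequences in the study's lists of differentially expressed miRNAs, none had the seed of these 3, and none had the seed of mtr-miR168c-3p. Sequences outside those lists were not searched, so other miRNAs of the study may share these seeds. The 2 arms of miR168c formed a duplex of 17 base pairs in ViennaRNA's prediction, 3 of them between G and U, with 2 unpaired bases inside the 5p arm. The duplex left 2 bases unpaired at the 3′ end of each arm, the overhang that Dicer enzymes leave. The sequences of mtr-miR162 and mtr-miR168a were not used here.

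mtr-miR168b and mtr-miR168c-5p share all 21 bases, and their counts were nearly the same. mtr-miR168c-5p had 1 to 11 reads more than mtr-miR168b in each library, which is 0.0186% to 0.218% of its reads. The 2 entries are therefore 1 measurement of the miR168 5p strand, and a read may have been counted under both. mtr-miR168a was almost unseen. It had 1 read in AS2 and 0 in each of the other libraries, where 0 reads allow up to 0.417 to 0.801 reads per 1000000 miRNA reads (3 counts per library, for counting error only). It was left out of the tests by the filter on low counts, and the remaining 4 entries were among the 647 miRNAs tested.

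Each alkali library held 4135854 to 6503979 miRNA counts, each salt library 3918174 to 7191272 and each distilled water library 3746957 to 4554748. Counts are given as CPM, which is counts per 1000000 of a library's miRNA total times its factor from the trimmed mean of M-values (TMM). The TMM factors were 0.768 to 0.953 in alkali, 0.871 to 1.07 in salt and 1.07 to 1.35 in distilled water. The factors of the alkali libraries all lay below those of the distilled water libraries, so CPM in alkali was scaled up against distilled water. The deposited TPM values carry no such factor and are shown beside CPM for this reason.

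Both miRNAs were moderately abundant and close to each other in level. Over the 9 libraries mtr-miR162 averaged 1723 ± 230 CPM, mtr-miR168c-5p 1467 ± 269 CPM, mtr-miR168b 1466 ± 269 CPM and mtr-miR168c-3p 1372 ± 242 CPM (SD, n = 9). These are ranks 34, 35, 36 and 38 among 303 known miRNAs tested with distinct counts. In this order each entry differed from the next by less than the larger of their SDs. The nearest others were mtr-miR156f, of the family that targets SPL transcription factors, at 1729 ± 584 CPM above mtr-miR162, and mtr-miR1510b-5p at 1453 ± 492 CPM below mtr-miR168b. mtr-miR5232 was next below mtr-miR168c-3p, at 1270.2 ± 776 CPM (SD, n = 9 each). CPM counts whole small RNAs, so no length correction applies, but the efficiency with which each sequence is cloned was not measured.

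**Figure D1:**
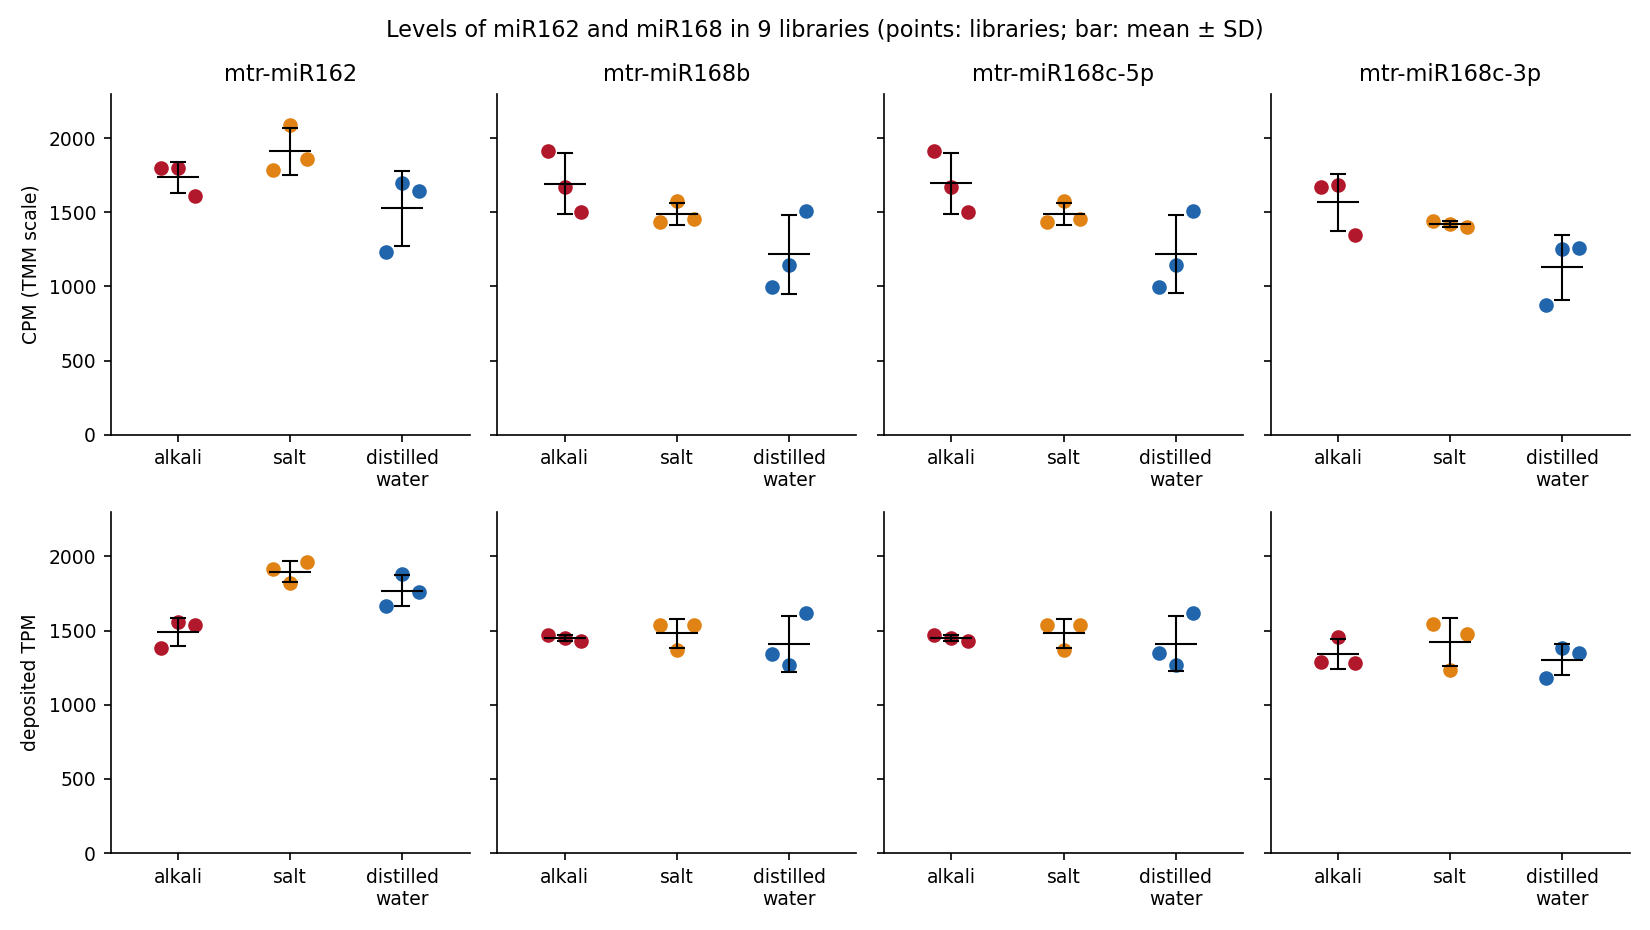
Levels of the 4 tested entries in each condition. The upper row is CPM on the TMM scale and the lower row the deposited TPM. Points are libraries and bars the mean ± SD (n = 3). The distilled water library DW1 is the lowest for every entry on the CPM scale, at 1234 CPM for mtr-miR162 and 876 CPM for mtr-miR168c-3p, and the conditions lie closer together for miR168 on the TPM scale.

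The miR168 5p strand, the arm that targets AGO1 mRNA, stood higher on average in alkali than in distilled water on the CPM scale, without passing the test. mtr-miR168b was at 1912, 1669.7 and 1499 CPM in AS1, AS2 and AS3, against 995, 1145 and 1509 CPM in DW1, DW2 and DW3. The lowest alkali library was thus just below DW3, and the groups overlapped. Its log2 fold change was 0.48 (standard error 0.185, 95% interval 0.09 to 0.86, adjusted p = 0.0649 from edgeR). mtr-miR168c-5p gave the same picture as the same sequence, at 1913, 1671 and 1500.5 CPM in alkali against 997, 1146 and 1510.1 CPM in distilled water (log2 fold change 0.48).

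The 3p arm had about the same log2 fold change as the 5p arm, and did not pass the test either. mtr-miR168c-3p was at 1673, 1682 and 1344 CPM in AS1, AS2 and AS3, against 876, 1252 and 1256 CPM in DW1, DW2 and DW3. In CPM, every alkali library lay above every distilled water library. Its log2 fold change was 0.47 (standard error 0.183, 95% interval 0.09 to 0.85, adjusted p = 0.0640 from edgeR).

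mtr-miR162, the miRNA of DCL1 mRNA, had a smaller log2 fold change. It was at 1796, 1797 and 1610.3 CPM in the alkali libraries, against 1234, 1700.4 and 1643 CPM in DW1, DW2 and DW3. The groups overlapped, with DW1 apart from the rest. Its log2 fold change was 0.18 (standard error 0.179, 95% interval -0.19 to 0.55, adjusted p = 0.441 from edgeR). Without 1 library it ran from 0.13 without DW1 to 0.35 without DW2.

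A miRNA was called where its fold change was over 1.5 with an adjusted p below 0.05. edgeR called 0 of the 4 entries in alkali against distilled water, while 17.2% of all miRNAs tested were called. Before adjustment p was below 0.05 for 3 of them, the miR168 entries, of which 2 are the same sequence, and for 41.9% of all miRNAs. None of the 3 reached the fold threshold. limma-voom also called 0 (17.8% of all miRNAs called). DESeq2 called the 3 miR168 entries higher (18.9% of all miRNAs called), and so did edgeR with DESeq2's size factors (19.9%). The fold change was then barely over the threshold, at 0.59 on the log2 scale for each of the 3 entries. edgeR without DW3 called the same 3 (30.7% of all miRNAs called), with a log2 fold change of 0.73 for mtr-miR168b. Without AS3 it called mtr-miR168c-3p alone (26.2%), at a log2 fold change of 0.61. mtr-miR168b and mtr-miR168c-5p, at 0.59 each, only just missed there (adjusted p = 0.0503 and 0.0507 from edgeR). Without DW1 and AS1, the libraries with the highest and the lowest TMM factor, mtr-miR168b had a log2 fold change of 0.27 (adjusted p = 0.415 from edgeR). In CPM, alkali and distilled water libraries did not overlap for 1 of the 4 entries, with alkali higher, against 34.6% of all miRNAs tested in either direction.

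**Figure D2:**
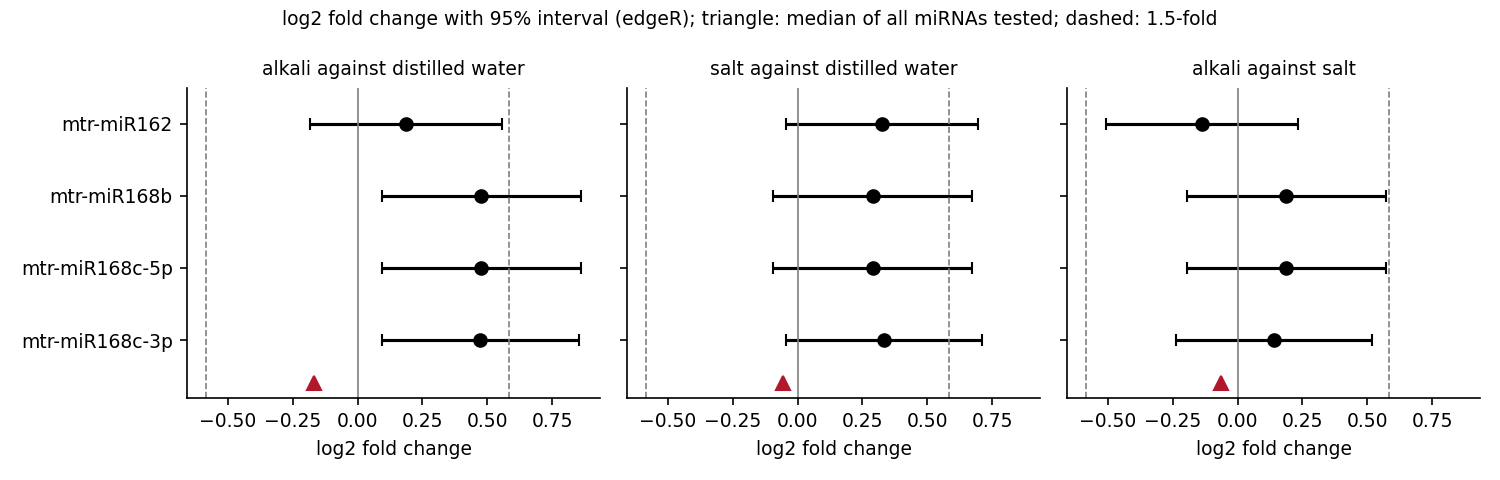
log2 fold change of each tested entry in each comparison, with its 95% interval from edgeR (n = 3 libraries per condition). Dashed lines mark a fold of 1.5 and the triangle the median of all 647 miRNAs tested. The miR168 intervals in alkali against distilled water lie above 0 and reach past the 1.5-fold line, while all the other intervals include 0.

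In salt, mtr-miR162 stood higher than in distilled water on the CPM scale, again without passing the test. It was at 1788, 2086 and 1856 CPM in SS1, SS2 and SS3, against 1234, 1700.4 and 1643 CPM in DW1, DW2 and DW3. Every salt library lay above every distilled water library. Its log2 fold change was 0.32 (standard error 0.179, 95% interval -0.05 to 0.69, adjusted p = 0.305 from edgeR).

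The miR168 5p strand in salt overlapped with distilled water. mtr-miR168b was at 1435, 1573 and 1455 CPM in the salt libraries, against 995, 1145 and 1509 CPM in the distilled water libraries, with DW3 above 2 of the 3 salt libraries. Its log2 fold change was 0.29 (95% interval -0.09 to 0.67, adjusted p = 0.360 from edgeR). For mtr-miR168c-5p the log2 fold change was 0.29 as well. mtr-miR168c-3p was at 1443, 1419.9 and 1402 CPM in salt, a narrow range, against 876, 1252 and 1256 CPM in distilled water. These groups did not overlap in CPM, and the log2 fold change was 0.33 (95% interval -0.04 to 0.71, adjusted p = 0.305 from edgeR).

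In salt against distilled water edgeR called 0 of the 4 entries, where it called 8.19% of all miRNAs. Before adjustment p was below 0.05 for 0 of them, against 21.0% of all miRNAs. DESeq2 called 0 (6.80% of all miRNAs) and limma-voom 0 (7.88%). In CPM, salt and distilled water libraries did not overlap for 2 of the 4, with salt higher, against 24.1% of all miRNAs tested in either direction. Without DW3 the adjusted p of mtr-miR168b fell to 0.0295 in edgeR, with a log2 fold change of 0.54, which is under the 1.5-fold threshold. Without DW1, the lowest distilled water library in CPM, the log2 fold change of mtr-miR168b was 0.22 (adjusted p = 0.649 from edgeR). That of mtr-miR168c-3p was then 0.24 (adjusted p = 0.586) and that of mtr-miR162 0.25 (adjusted p = 0.582, both from edgeR). These were the lowest values with 1 library left out.

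Alkali and salt were also compared directly. mtr-miR162 averaged 1734 ± 107 CPM in alkali and 1910.0 ± 156 CPM in salt (SD, n = 3 each), a log2 fold change of -0.14 (95% interval -0.51 to 0.23). mtr-miR168b averaged 1694 ± 207 CPM in alkali and 1487 ± 74.5 CPM in salt, a log2 fold change of 0.19 (95% interval -0.20 to 0.57), and mtr-miR168c-3p 1566 ± 192 CPM and 1422 ± 20.8 CPM in the same order of conditions, a log2 fold change of 0.14 (95% interval -0.24 to 0.52; SD, n = 3 each). The libraries overlapped for every entry. edgeR called 0 of the 4, where it called 4.02% of all miRNAs. DESeq2 called 0 as well (3.86% of all miRNAs), as did limma-voom (4.02%), and p before adjustment was below 0.05 for 0 of them, against 17.6% of all miRNAs.

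The size of these differences depended on how the libraries were scaled. With libraries scaled by their total miRNA count, as in the deposited TPM, mtr-miR168b had a log2 fold change of 0.04 in alkali against distilled water, and mtr-miR168c-3p also 0.04. mtr-miR162 then turned to -0.25. In TPM, mtr-miR162 was at 1379.7, 1557 and 1534 in AS1, AS2 and AS3, against 1667, 1878 and 1763 in DW1, DW2 and DW3. Every alkali library thus lay below every distilled water library, the reverse order of the means in CPM. This lower level was not particular to mtr-miR162. With total miRNA counts the median log2 fold change of all miRNAs tested was -0.61, and edgeR called 255 of 647 lower. The share of all miRNAs without overlap in TPM was not counted. mtr-miR168b in TPM was at 1469, 1447 and 1428 in alkali, against 1344, 1265 and 1619 in distilled water. All 3 alkali libraries lay between DW1 and DW3. In the salt libraries mtr-miR162 was at 1915, 1817 and 1959 TPM and mtr-miR168b at 1537, 1369.5 and 1535 TPM. mtr-miR162 was thus lower in TPM in every alkali library than in every salt library. The share of all miRNAs that separated in this way was not counted either. The log2 fold change of mtr-miR162 was -0.35 in alkali against salt (adjusted p = 0.188 from edgeR with total miRNA counts). The median of all miRNAs tested was -0.28 there. In TPM the salt and distilled water libraries overlapped for mtr-miR162, with SS2 below DW2. mtr-miR168c-3p was at 1285, 1458 and 1281 TPM in alkali, 1547, 1237 and 1479 in salt and 1183, 1383 and 1347 in distilled water. Both stresses thus overlapped with distilled water. With total miRNA counts, log2 fold changes in salt against distilled water were 0.10 for mtr-miR162, 0.07 for mtr-miR168b and 0.12 for mtr-miR168c-3p.

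The median log2 fold change of all miRNAs tested moved with the scaling as well, from -0.17 with TMM to -0.61 with total miRNA counts in alkali against distilled water. A scaling shifts the log2 fold changes of all miRNAs by nearly the same amount, so a value relative to the median hardly depends on the scaling by construction, and says nothing of how stable these miRNAs are. Over the 5 scalings, mtr-miR168b lay 0.63 to 0.65 above the median on the log2 scale, mtr-miR168c-3p 0.63 to 0.65 and mtr-miR162 0.34 to 0.36. mtr-miR168b had a higher log2 fold change than 85.0% to 85.3% of all miRNAs tested, and mtr-miR162 than 66.7% to 68.6%. In salt against distilled water, mtr-miR168b lay 0.32 to 0.35, mtr-miR168c-3p 0.38 to 0.40 and mtr-miR162 0.37 to 0.38 above the median. This comparison with the median was added after the data were examined, and has no test.

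**Figure D3:**
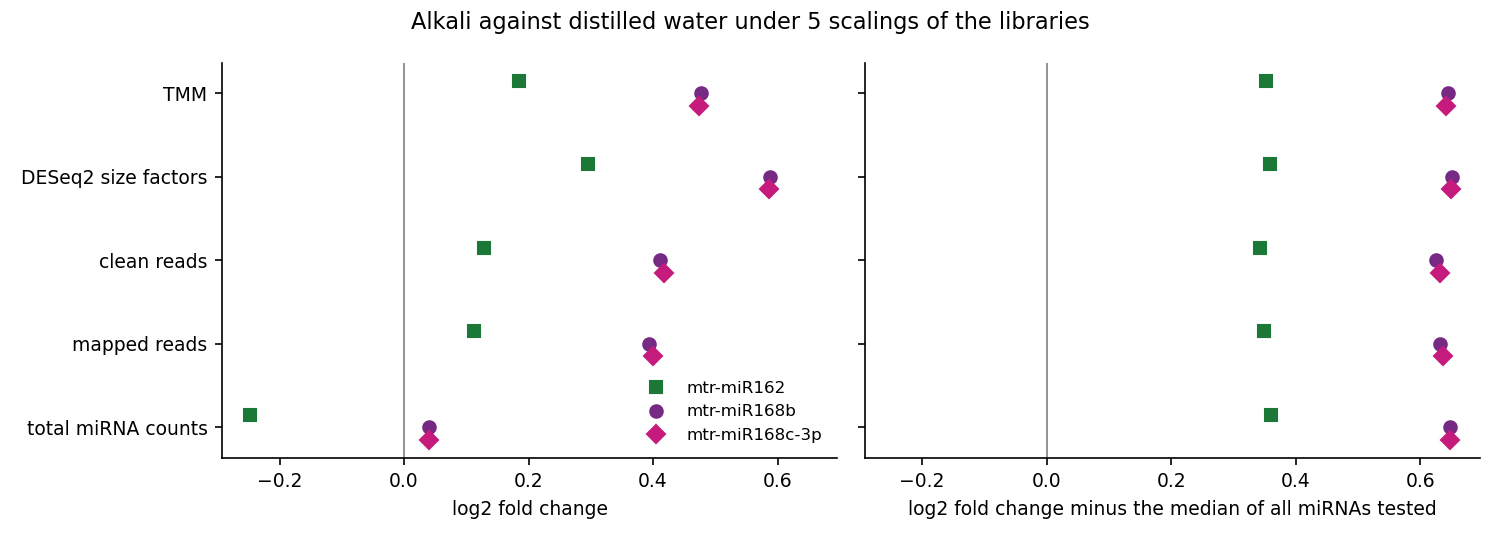
log2 fold change in alkali against distilled water under 5 ways of scaling the libraries. The left panel gives the fold change and the right panel the same after subtracting the median of all miRNAs tested. On the left mtr-miR162 runs from -0.25 to 0.30 and mtr-miR168b from 0.04 to 0.59, while on the right the shift common to all miRNAs is removed by the centring.

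A ratio of 2 miRNAs within a library does not depend on scaling. mtr-miR162 had 0.939, 1.08 and 1.07 times the reads of mtr-miR168b in AS1, AS2 and AS3, against 1.24, 1.48 and 1.09 times in DW1, DW2 and DW3. In SS1, SS2 and SS3 it had 1.25, 1.33 and 1.28 times. The ratio was thus lower in every alkali library than in every salt or distilled water library, although DW3 came close to AS2. The mean log2 ratio was 0.04 ± 0.11 in alkali, 0.36 ± 0.05 in salt and 0.33 ± 0.22 in distilled water (SD, n = 3 each).

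The alkali minus distilled water difference of this log2 ratio was -0.30, and ran from -0.40 without DW3 to -0.18 without DW2. The alkali minus salt difference was -0.32, and ran from -0.35 without AS2 to -0.25 without AS1. Each had p = 0.1 in a two-sided exact permutation test, the smallest that 3 libraries against 3 allow. Over the 3 conditions at once, an exact permutation test of F gave p = 0.0714, or 0.267 after Benjamini-Hochberg adjustment over 8 ratio tests. The salt minus distilled water difference was 0.02 (exact permutation p = 0.8). Without 1 library, the 3-condition p ran from 0.00357 without DW2 to 0.225 without AS1, with 0.025 without DW3 (exact permutation). With mtr-miR168c-3p as the denominator, a choice made after the data were examined, the ratios were 1.07 to 1.20 in alkali, 1.24 to 1.47 in salt and 1.31 to 1.41 in distilled water. There the alkali libraries again lay below all others, and the 3-condition p was 0.0357 by the exact permutation test before adjustment.

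**Figure D4:**
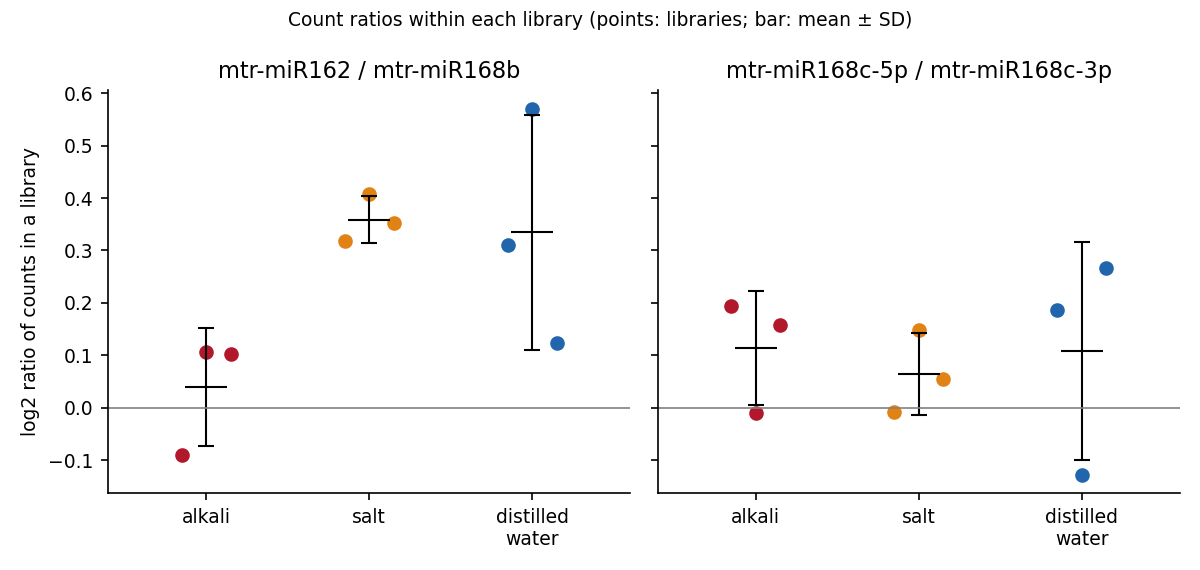
log2 ratio of counts within each library, for mtr-miR162 to mtr-miR168b (left) and for the 2 arms of miR168c (right). Points are libraries and bars the mean ± SD (n = 3). On the left the 3 alkali libraries are the lowest, and on the right the conditions overlap.

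The 2 arms listed for miR168c were sequenced at nearly equal numbers. The 5p reads cannot be assigned to the miR168c hairpin alone, because mtr-miR168b has the same sequence. The ratio therefore compares 2 strands and may not be that of a single hairpin. mtr-miR168c-5p had 1.14, 0.993 and 1.12 times the reads of mtr-miR168c-3p in AS1, AS2 and AS3, 0.995, 1.11 and 1.04 times in SS1, SS2 and SS3, and 1.14, 0.915 and 1.20 times in DW1, DW2 and DW3. The 5p arm was ahead in 6 of the 9 libraries. As a share of the reads of both arms, the 5p arm was lowest in DW2, at 47.8% (95% Wilson interval 46.8% to 48.7%), and highest in DW3, at 54.6% (95% Wilson interval 53.8% to 55.4%). Both extremes were distilled water libraries. The intervals cover counting error only, not the spread between libraries.

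The arm ratio did not pass a test between conditions. The mean log2 ratio was 0.11 ± 0.11 in alkali, 0.06 ± 0.08 in salt and 0.11 ± 0.21 in distilled water (SD, n = 3 each), with p = 0.9 over the 3 conditions (exact permutation test of F). The difference in alkali against distilled water was 0.01 on the log2 scale, less than the spread within either condition.

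Most known hairpins had a larger difference between their arms. Of 35 hairpins with both arms tested and distinct counts, 8 had arms within 2-fold of each other on average. miR168c had the mean log2 ratio closest to 0, at 0.10 ± 0.13 (SD, n = 9), with the 5p reads that mtr-miR168b shares counted in full. The neighbours in that order were miR1510a at -0.16 and miR1507 at 0.19, with SDs of 0.20 and 0.29. In distance from 0, each differed from miR168c by less than its own SD, so the order of the 3 is not resolved. At the ends stood miR319b, whose 5p arm is the passenger strand, at -11.9, and miR5213 at 14.6. The 3p entries of miR319a, miR319b and miR319d had nearly the same level, at 17796, 17808 and 17790 CPM. Their reads may be shared between entries, which was not tested, and would then make these ratios more extreme. Other hairpins had such entries too. mtr-miR156d-5p and mtr-miR156i-5p were at 7968.7 and 7968.9 CPM, and the 3p entries of miR2592b, miR2592d and miR2592e at 60.1, 60.0 and 60.2 CPM. The 35 ratios may therefore not be independent, and some may not be those of a single hairpin. No test was made of this order.

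miR168 was also among the steadiest known miRNAs on the TPM scale. The coefficient of variation (CV) of TPM over the 9 libraries was 7.57% for mtr-miR168b, 8.94% for mtr-miR168c-3p and 11.5% for mtr-miR162. The median was 17.1% over the 93 known miRNAs with at least 100 CPM. Of these 93, 2.15% had a lower CV than mtr-miR168b, a share that counts mtr-miR168c-5p, the same sequence, at 7.56%. For mtr-miR168c-5p the share was 1.08%. A lower CV than that of mtr-miR162 was found for 16.1%, the miR168 entries among them. On the CPM scale the order turned round, with a CV of 13.3% for mtr-miR162 and 18.4% for mtr-miR168b, where the median was 21.6%. There 36.6% of the 93 had a lower CV than mtr-miR168b, 33.3% than mtr-miR168c-3p and 9.68% than mtr-miR162. miR168 was thus not among the steadiest on that scale.

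**Figure D5:**
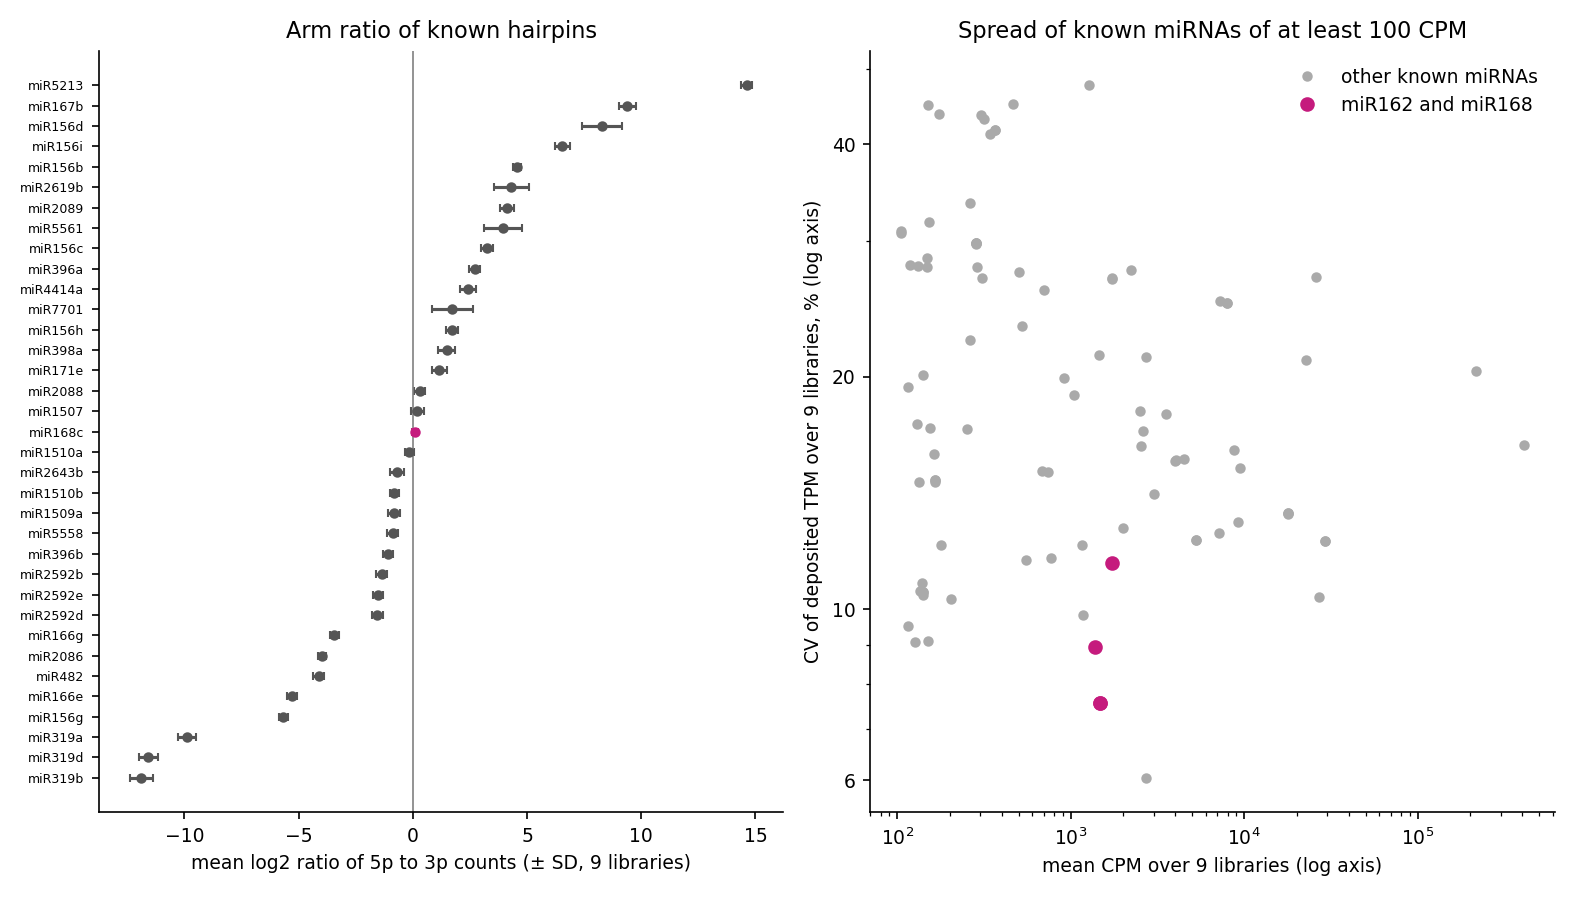
Left, mean log2 ratio of 5p to 3p counts of 35 known hairpins with its SD over 9 libraries, miR168c coloured at 0.10. Right, CV of the deposited TPM against mean CPM for 93 known miRNAs, with the miR162 and miR168 entries coloured at CVs of 7.57% to 11.5%. Both axes on the right are logarithmic.

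Across the 9 libraries the log2 CPM of mtr-miR162 had a correlation of 0.702 with mtr-miR168b and of 0.818 with mtr-miR168c-3p, and the 2 arms of miR168 one of 0.899. These values are descriptions over libraries that share their scaling factors. By the same measure, the known miRNAs most like mtr-miR162 were mtr-miR156h-3p (0.924), mtr-miR1507-5p (0.891) and mtr-miR2636 (0.887). Those most like mtr-miR168b, after mtr-miR168c-5p, were mtr-miR1510b-5p (0.980), mtr-miR2086-5p (0.961) and mtr-miR1510a-5p (0.956). For mtr-miR168c-3p they were mtr-miR169b (0.954), mtr-miR2086-5p (0.942) and mtr-miR171c (0.929). mtr-miR169b averaged only 3.64 CPM over the 9 libraries, so its correlation rests on low counts.

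Of other miRNAs tied to small RNA production, the list held miR403 and miR1515, which target AGO2 and DCL2 mRNAs in other plants, and miR390, which starts trans-acting siRNA production with AGO7 in Arabidopsis. mtr-miR390 was the 1 entry found in the count table under these names. It was at 236, 133 and 158 CPM in the alkali libraries and 147, 176 and 164 CPM in the salt libraries, against 95.5, 111 and 177 CPM in the distilled water libraries, and the groups overlapped. edgeR did not call it, with a log2 fold change of 0.46 in alkali (standard error 0.222, adjusted p = 0.121) and 0.34 in salt (standard error 0.222, adjusted p = 0.368).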

How the data were processed

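Per the methods of the study, the authors filtered reads by quality and length, discarded matches to rRNA, tRNA and the like with Bowtie, aligned what was left to the Medicago truncatula genome with miRDeep-P and deposited counts for known and predicted miRNAs. The study's methods define TPM relative to the clean reads of a sample. In the deposited TPM values, however, each count is taken relative to all miRNA counts of its library. How reads of identical sequences were assigned is not given in the sources used here. The authors tested with DESeq 1.10.1, which was not used here. Their lists of differentially expressed miRNAs hold mtr-miR168b, mtr-miR168c-5p and mtr-miR168c-3p.

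Counts were fitted in R 4.3.3 with edgeR 4.0.16 (filterByExpr with a minimum count of 10, TMM, robust quasi-likelihood test, all 9 libraries by condition), and p was adjusted over the 647 miRNAs tested. Intervals are the log2 fold change ± the t quantile times its standard error, at a level of 95%. Ratios are log2 of counts plus 0.5, tested by exact permutation over libraries. Other tools were DESeq2 1.42.0, limma 3.58.1 and ViennaRNA 2.7.2. The clean and mapped reads that the study gives served as alternative library sizes. Other alternatives were other filters, a fit of only the conditions compared, identical count profiles used once, the replicate number as a block and each library left out in turn.

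The edgeR test was also run on simulated counts, with larger fold changes than those of the members and a fixed spread. That run does not cover changes near the 1.5-fold threshold or uneven TMM factors. Members and lists were chosen with earlier results of these data known. Named miRNAs were the members, the 3 most correlated with each, the nearest in level, the miRNA machinery list, and the neighbours and extremes in arm ratio. A list of cell type markers was not used, since miRNAs of whole seedlings hold no accepted marker.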

Additional observations from a re-analysis of the deposited data

How the results depend on the processing

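In alkali against distilled water, mtr-miR168b, mtr-miR168c-3p and mtr-miR168c-5p passed the thresholds, which made 3 entries called, with DESeq2 (log2 fold changes of 0.59, 0.59 and 0.59) and with DESeq2's size factors in edgeR (0.59, 0.59 and 0.59). Without 1 library, the log2 fold change ran from 0.38 to 0.73 for mtr-miR168b, from 0.40 to 0.63 for mtr-miR168c-3p and from 0.38 to 0.73 for mtr-miR168c-5p, and the entries called from 0 to 3. Scaled by total miRNA counts, mtr-miR162 turned to -0.25 in alkali against distilled water, and mtr-miR168b, mtr-miR168c-3p and mtr-miR168c-5p to -0.032, -0.083 and -0.032 in alkali against salt. With limma on log2 of TPM plus 1 the same values were -0.25, -0.030, -0.079 and -0.030. None of these reversed values passed the test. The cause of these changes was not tested, but total counts and TPM leave out the TMM factor by construction.

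The log2 arm ratio of miR168c without 1 library ran from -0.11 to 0.085 in alkali against distilled water, with -0.034 without AS1 and -0.016 without AS3, and from -0.16 to 0.035 in salt. For mtr-miR162 to mtr-miR168b it ran from -0.081 to 0.14 in salt against distilled water, and F over the conditions, 4.37 with all libraries, ran from 2.12 to 9.51 (8.14 without DW2). With mtr-miR168c-3p as denominator the salt difference was -0.018 and F was 8.70.

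Same-numbered libraries did not deviate together (correlations of -0.585 to 0.403), and a library correlated best with its own number in 5 of 18 cases. With a replicate block the log2 fold change in alkali was 0.49 for mtr-miR168b (adjusted p = 0.115 from edgeR) and 0 of the 4 entries were called, while calls over all miRNAs went to 84 with the block, against 111 without it, in alkali, and to 31, against 53, in salt.

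The 4 entries tested had at least 4434 counts in each library, so the spread between libraries and the scaling limit their precision more than depth does. For mtr-miR168a, with 1 read in all, depth allows no comparison.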
